A study of Mus musculus with 7 samples.

Results

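The receptors Hcar2, Hcar1, Gpr84, Sucnr1 and Gpr183, which sense small metabolites, were described in microglia of the mouse hippocampus. They were picked by gene symbol out of a table of 55401 genes, and all 5 were found in it. The set was assembled with the ATG7 against EYFP difference of these libraries in view, with Hcar2 standing out, so the differences of the 5 between groups are given as descriptions without a test. All mice were of the C57BL/6 strain, described as adult males of 6 to 8 weeks, and all carried the virus AAV-RAM-Cre, injected into the dentate gyrus on its dorsal side. RAM is a synthetic promoter switched on in neurons that were active during an experience, the so-called engram neurons. By design, Cre acts in those neurons and not in the microglia. The 4 EYFP libraries came from mice that also received AAV-Dio-EYFP, a Cre-dependent fluorescent protein. The 3 ATG7 libraries came from mice that instead received AAV-Dio-Atg7-Flag, which places a tagged copy of the autophagy gene Atg7 in the engram neurons. Microglia, the resident macrophages of the brain, were enriched from dissociated hippocampus with magnetic beads against CD11b and sequenced in bulk. The comparison asks how the microglial levels of these receptors differ when engram neurons carry extra Atg7.

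The 5 genes encode receptors with a bundle of membrane-spanning helices that couple mainly to inhibitory G proteins and lower cyclic AMP. Hcar2 binds the ketone body beta-hydroxybutyrate and the vitamin niacin, and its near neighbour Hcar1 binds lactate. Gpr84 responds to medium-chain fatty acids and is known as a gene that macrophages and microglia switch on in inflammation. Sucnr1 binds succinate, an intermediate of the citric acid cycle. Gpr183, also known as EBI2, guides immune cells along gradients of hydroxylated cholesterol made by the enzymes Ch25h and Cyp7b1.

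Hcar2 (ENSMUSG00000045502) lies on the minus strand of chromosome 5 at 123863570 to 123865499 in GRCm38 and has 1 exon. Hcar1 (ENSMUSG00000049241) lies on the same strand at 123876736 to 123880020, also as 1 exon, with 11236 bases between them. Reads of similar neighbours can be assigned to the wrong gene, so a stretch of both coding sequences is shown, taken from the GENCODE M21 transcripts, with the bases that differ between the genes in capitals. It covers coding bases 117 to 236 of Hcar2 and 114 to 233 of Hcar1, the 120-base stretch of the alignment with the most identical bases.
Hcar2: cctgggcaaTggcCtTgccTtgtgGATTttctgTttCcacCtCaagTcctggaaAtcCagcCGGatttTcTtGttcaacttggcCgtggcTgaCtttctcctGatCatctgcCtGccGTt
Hcar1: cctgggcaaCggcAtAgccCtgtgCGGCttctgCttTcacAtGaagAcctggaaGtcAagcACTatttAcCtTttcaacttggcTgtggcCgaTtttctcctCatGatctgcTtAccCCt
In this window 90 of 120 bases were identical and 30 differed. Over the whole coding sequences, of 1080 bases in Hcar2 and 1053 in Hcar1, 662 of 1040 aligned bases were identical (63.7%), and the longest identical run was 18 bases. No 50-base word of either transcript occurred in a transcript of another gene. The other pairs among the 5 genes were 52.1% to 55.9% identical over aligned coding bases.

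Gpr84 (ENSMUSG00000063234) lies on the minus strand of chromosome 15 at 103308235 to 103310612, and the antisense gene Gm49482 overlaps its exons. Of the 1676 50-base words of the Gpr84 transcript, 37.8% also occur in Gm49482, read on either strand. Gm49482 itself had at most 0.0999 CPM and was at 0 in 5 of 7 libraries, so few reads were assigned to it. Whether the authors' counting used strand is not given in the sources used here, and reads of the overlap cannot be told apart without it. Gpr183 (ENSMUSG00000051212) lies on the minus strand of chromosome 14 at 121952551 to 121965195, inside the body of Ubac2 on the other strand but with no shared exon. Sucnr1 (ENSMUSG00000027762) lies on the plus strand of chromosome 3 at 60081869 to 60087566.

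Total counts ran from 35934210 to 55217119 per library, and 3 counts corresponded to 0.0543 to 0.0835 CPM, a gene's reads relative to the library total. Levels below are CPM scaled by trimmed means of M values, so that libraries can be compared. Of 19199 genes tested between the groups, edgeR called 145 at a Benjamini-Hochberg adjusted p under 0.05, 132 higher and 13 lower in ATG7. The p-values measure the spread between these libraries, since the labels do not say that each came from a separate animal. Atg7 itself ran from 33.6 to 37.6 CPM in EYFP and from 32.0 to 37.4 in ATG7 (log2 fold change -0.03, edgeR adjusted p = 0.939). By design the transgene was aimed at neurons, and which cells carried it was not tested here. The summed level of 12 microglial markers was 23590 to 28120 CPM in EYFP and 23650 to 28870 in ATG7, with 0 of 12 called. Of the 12, 10 had a positive log2 fold change (median 0.09). The library labelled EYFP 3 stands apart from the described sex, with 938.5 CPM of the female transcript Xist against 0.151 to 0.574 in the other 6 libraries. Its Y-linked Ddx3y was lower but present, at 27.6 CPM against 121.1 to 168.7, so EYFP 3 held both transcripts. Why it did was not tested, and values without EYFP 3 are given below.

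Hcar2 was the receptor that separated the groups. Its level was 7.76, 7.37, 7.65 and 5.94 CPM in EYFP 1 to 4 and 18.7, 21.0 and 18.8 CPM in ATG7 1 to 3. Every ATG7 library lay above every EYFP library, and the coefficient of variation was 11.7% within EYFP and 6.75% within ATG7. The means were 7.18 ± 0.843 CPM (SD, n = 4) and 19.5 ± 1.32 CPM (SD, n = 3), and the log2 fold change was 1.44 with a standard error (SE) of 0.115, or 2.71-fold higher. Without EYFP 3 it was 1.47. These values rest on 242 to 345 reads per EYFP library and 747 to 1154 per ATG7 library. Hcar2 sits near the middle of the genes tested, 50.4% of which had a higher mean level.

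Hcar1, the lactate receptor next door, was barely detected. Its level was 0.382, 0.872, 0.466 and 0.491 CPM in EYFP 1 to 4 and 0.525, 0.528 and 0.989 CPM in ATG7 1 to 3, from 14 to 46 reads per library. The groups overlapped, with EYFP 2 above both ATG7 1 and ATG7 2. The means were 0.553 ± 0.218 CPM (SD, n = 4) and 0.681 ± 0.267 CPM (SD, n = 3), with a log2 fold change of 0.29 (SE 0.382). That difference turned to -0.09 without ATG7 3 and reached 0.60 without EYFP 2, so its sign turned with 1 library, and it was 0.20 without EYFP 3.

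Gpr84, the medium-chain fatty acid receptor, was higher in part of the ATG7 group. Its level was 36.1, 35.9, 37.8 and 37.5 CPM in EYFP 1 to 4 and 36.6, 61.1 and 53.7 CPM in ATG7 1 to 3. The 4 EYFP libraries were tightly grouped, with a coefficient of variation of 2.58%, while the ATG7 libraries varied by 24.9%. ATG7 1 lay within the EYFP range and the other 2 ATG7 libraries lay above it. The means were 36.8 ± 0.951 CPM (SD, n = 4) and 50.4 ± 12.6 CPM (SD, n = 3), with a log2 fold change of 0.46 (SE 0.140). It was 0.64 without ATG7 1, 0.30 without ATG7 2 and 0.46 without EYFP 3.

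Gpr183, the oxysterol receptor, had the highest average level of the set per length in the counts as deposited, and its groups overlapped. It measured 107.7, 90.8, 111.2 and 95.5 CPM in EYFP 1 to 4 and 85.8, 96.5 and 105.0 CPM in ATG7 1 to 3. The 3 ATG7 values lay among or just under the EYFP values, and ATG7 1 was the lowest library. The means were 101.3 ± 9.71 CPM (SD, n = 4) and 95.8 ± 9.64 CPM (SD, n = 3), with a log2 fold change of -0.08 (SE 0.0942) that was -0.04 without EYFP 3. Sucnr1, the succinate receptor, was at 0 reads in 6 libraries and at 2 reads in ATG7 3, which is 0.0430 CPM and under the 3-count floor. It was not detectable at this depth in either group and did not pass the filter on low counts.

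Among the 5 receptors, 4 passed the filter on low counts, and Hcar2 alone of the 4 had groups that did not overlap, with ATG7 higher. Of all genes tested, 6.33% had every ATG7 library above every EYFP library and 4.91% every one below. Since the set was chosen from this same contrast, its count is given beside that background with nothing read from it. In bulk RNA a change in the share of cells that carry a transcript and a change in its amount per cell cannot be told apart, and this holds for each level reported here.

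**Figure D1:**
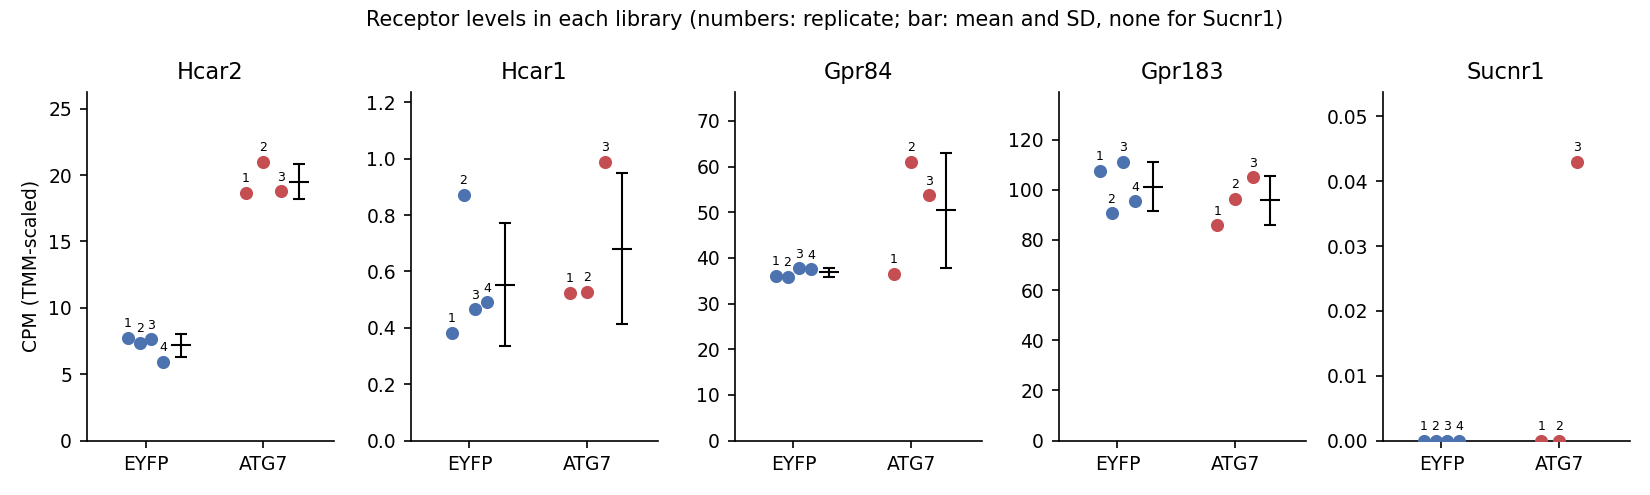
Level of each receptor in CPM (y axis, from 0, on a scale of its own per panel) in the EYFP and ATG7 libraries, with the replicate number at each point and the mean and SD as bars (none for Sucnr1). The 3 Hcar2 points of ATG7 sit between 18.7 and 21.0, all above EYFP, while Gpr84 in ATG7 1 sits among the EYFP points and the Hcar1 and Gpr183 groups overlap.

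Levels of different genes are comparable only per length, so CPM was divided by the kilobases of exon of each gene. On that scale Gpr183 stood at 35.1 ± 3.37 CPM per kb in EYFP and 33.2 ± 3.34 in ATG7 (SD, n = 4 and n = 3). Gpr84 stood at 21.3 ± 0.551 in EYFP and 29.2 ± 7.29 in ATG7, and Hcar2 at 3.72 ± 0.437 and 10.1 ± 0.682. Hcar1 stood far below at 0.168 ± 0.0663 and 0.207 ± 0.0814. The order Gpr183, Gpr84, Hcar2, Hcar1, Sucnr1 held in 6 of 7 libraries. The length of Gpr84 includes its overlap with Gm49482, where reads may have gone uncounted, depending on the strand setting. Its level per kb may therefore be understated, and its place against Gpr183 holds only for the counts as deposited. In ATG7 2 Gpr84, at 35.4 CPM per kb, stood above Gpr183 at 33.4. In EYFP the Gpr183 libraries, at 31.4 to 38.5, all lay above the Gpr84 libraries, at 20.8 to 21.9, but in ATG7 the 2 genes overlapped, at 29.7 to 36.4 and 21.2 to 35.4. Hcar2 lay below Gpr84 and above Hcar1 in every library of both groups.

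The distance of Hcar2 from its abundant relatives was smaller in ATG7. Per kb, Gpr183 exceeded Hcar2 by 9.28, 8.23, 9.72 and 10.8 times in EYFP 1 to 4 and by 3.07, 3.07 and 3.74 times in ATG7 1 to 3. Gpr84 exceeded Hcar2 by 5.20 to 7.06 times in EYFP and 2.19 to 3.25 times in ATG7. Neither ratio depends on library size. The Gpr183 ratio largely restates the Hcar2 difference, while the Gpr84 ratio also holds the higher Gpr84 of ATG7 2 and ATG7 3. The ratio of Hcar2 to Hcar1 ran from 14.4 to 34.5 in EYFP and from 32.3 to 67.7 in ATG7, overlapping between groups.

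**Figure D2:**
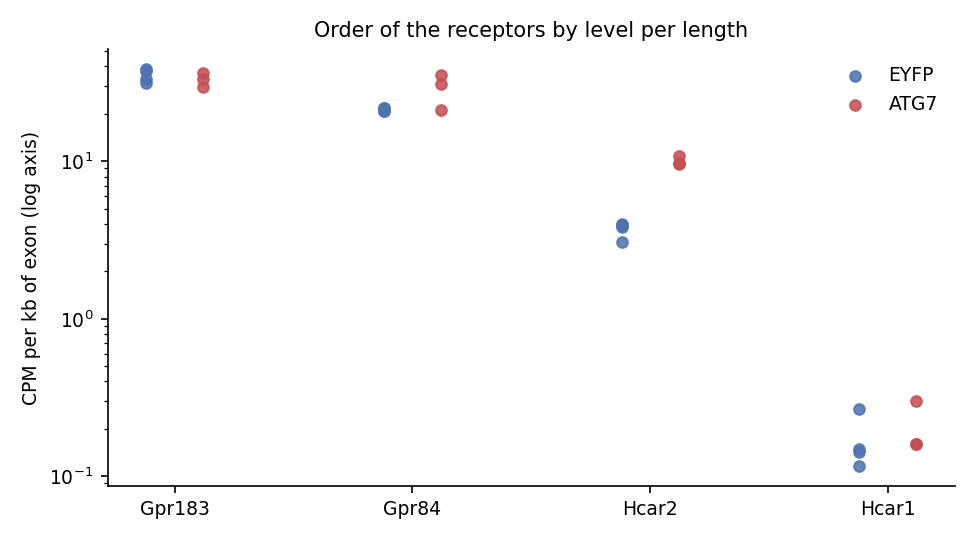
Level per kilobase of exon (y axis, CPM per kb, log scale) of 4 receptors in each EYFP library (blue) and ATG7 library (red), with Sucnr1 left out because it is at 0 in 6 libraries. Gpr183 and Gpr84 form the upper pair, Hcar2 stands at 3.72 in EYFP and 10.1 in ATG7 on average, and Hcar1 lies under 0.31 in every library.

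Transcripts of other cell types were measured beside the receptors with 11 marker lists. The 10 T and NK cell markers summed to 8.38 to 14.1 CPM in EYFP and 15.6 to 29.5 in ATG7, without overlap. All 10 had a positive log2 fold change (median 1.57), and 1 of them, the T cell kinase Lck, passed the test (1.61, edgeR adjusted p = 0.0192). The DESeq2 Wald test called 5, next to 582 over all genes. Lck was not called without EYFP 4, ATG7 2 or ATG7 3. The 8 dendritic cell markers summed to 45.3 to 51.6 CPM in EYFP and, just above, 51.6 to 64.2 in ATG7, with the migration receptor Ccr7 passing (1.76, edgeR adjusted p = 0.0182), though not without ATG7 2 or ATG7 3. Neutrophils are a known site of Hcar2 and Gpr84. Their 12 markers summed to 513 to 721 CPM in EYFP and 706 to 834 in ATG7, with overlap and 0 called by edgeR or DESeq2. Most of that sum was Csf3r, also a microglial gene, at 417.7 to 629.7 CPM in EYFP and, without overlap, 655.2 to 741.5 in ATG7. The granule gene S100a8 was at 5.90, 5.39 and 32.2 CPM in ATG7 1 to 3 and at 8.57 to 17.8 in EYFP, so ATG7 3 stood above and the other ATG7 libraries below all EYFP libraries. S100a9 had the same pattern, and the median log2 fold change of the list was -0.08 with all libraries and -1.38 without ATG7 3. Ly6g and Stfa2l1 of this list were under 1 CPM in every library. Its granule genes Ngp and Ltf were detected in every library, at 4.27 to 27.9 and 4.82 to 24.4 CPM, highest in ATG7 3. The 12 markers of border-associated macrophages and monocytes summed to 694 to 845 CPM in EYFP and 762 to 948 in ATG7, with overlap and 7 of 12 positive. Plac8 averaged 3.23 CPM in EYFP and 8.79 in ATG7, without overlap. DESeq2 called it higher, and so did edgeR without ATG7 1, but not edgeR with all libraries. The part of the T, NK, dendritic cell, monocyte and neutrophil transcripts in the Hcar2 and Gpr84 differences was not tested. Choroid plexus epithelium, which makes cerebrospinal fluid, gave the highest sum of all lists, at 54800 to 72300 CPM in EYFP and 46410 to 61140 in ATG7. Its groups overlapped and edgeR and DESeq2 called 0 of its 8 markers, but all 8 had a negative log2 fold change (median -0.27), under each alternative as well. The summed levels of the lists for B cells, fibroblasts, endothelium, neurons, astrocytes and oligodendrocytes overlapped between groups, and edgeR called none of their genes, while DESeq2 called Ighd of the B cells and Slc7a10 of the astrocytes lower.

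The genes that make, use or transmit the ligands of these receptors were followed in 8 lists with 131 genes. Of these, 120 were tested, and 2 rose in ATG7 and 0 fell, next to 0.755% of all genes called in either direction, 0.688% higher and 0.0677% lower. The 2 that rose were Ch25h and Acod1, both enzymes that macrophages switch on when activated. Of the 120 genes, 63 had a positive and 57 a negative log2 fold change, with a median of 0.01 against -0.0037 over all genes tested. At an unadjusted p under 0.05 there were 20 of the 120, against 2300 of the 19199 genes tested. The lists were written with earlier results of these data known.

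Ch25h (ENSMUSG00000050370, chromosome 19, 34473778 to 34475164) makes the hydroxylated cholesterol from which the Gpr183 ligand is built. Its level was 2.16, 1.72, 1.49 and 2.26 CPM in EYFP 1 to 4 and 5.40, 7.08 and 4.67 CPM in ATG7 1 to 3. All ATG7 libraries lay above all EYFP libraries, with means of 1.91 ± 0.364 CPM (SD, n = 4) and 5.71 ± 1.24 CPM (SD, n = 3). The log2 fold change was 1.59 (SE 0.210, edgeR adjusted p = 0.00983). The call was lost without ATG7 2 (edgeR adjusted p = 0.0537). The next enzyme, Cyp7b1, which completes the ligand, had 6.96 ± 1.21 CPM (SD, n = 4) in EYFP, against 7.07 ± 1.26 CPM (SD, n = 3) in ATG7. Its groups overlapped (log2 fold change 0.02, SE 0.172, edgeR adjusted p = 0.983). Hsd3b7, which degrades the ligand, averaged 0.0362 CPM in EYFP and 0.111 CPM in ATG7 and was not tested, and Cyp7a1 was at 0 throughout. Of the 5 oxysterol genes tested, 1 rose and 0 fell, and 2 had an unadjusted p under 0.05. The second was the brain cholesterol hydroxylase Cyp46a1, at -0.49 (edgeR adjusted p = 0.231).

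Acod1 (ENSMUSG00000022126, chromosome 14, 103046977 to 103056573) makes itaconate, which inhibits succinate dehydrogenase and so bears on succinate, the Sucnr1 ligand. Its level was 2.38, 2.51, 2.90 and 1.40 CPM in EYFP 1 to 4 and 4.50, 8.30 and 6.54 CPM in ATG7 1 to 3. The groups did not overlap, with means of 2.30 ± 0.639 CPM (SD, n = 4) and 6.45 ± 1.90 CPM (SD, n = 3). The log2 fold change was 1.49 (SE 0.261, edgeR adjusted p = 0.0272). The call was lost without EYFP 2 (edgeR adjusted p = 0.0655), EYFP 4 (0.0686), ATG7 2 (0.141) or ATG7 3 (0.132). The other 9 genes of the succinate list included the 4 subunits of succinate dehydrogenase, Sdha to Sdhd, at log2 fold changes of -0.14, -0.03, -0.11 and -0.08. None of those 9 was called by edgeR or DESeq2, and 1 had an unadjusted p under 0.05, the dicarboxylate carrier Slc25a10, at -0.33 without overlap (edgeR adjusted p = 0.221). Slc25a10 was highest in EYFP 2 and EYFP 4, at 26.1 and 24.5 CPM, as were the choroid plexus markers, whose part was not tested. Of the 10 genes of the list, 2 had a positive and 8 a negative log2 fold change (median -0.115). Without EYFP 3, Ch25h stood at 1.48 (edgeR adjusted p = 0.0121) and Acod1 at 1.62 (edgeR adjusted p = 0.0293).

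Of 7 tested genes that make or use ketone bodies, the Hcar2 ligands, edgeR called 0 and 6 had a negative log2 fold change (median -0.11), 2 of them at an unadjusted p under 0.05. Acat1, the thiolase that splits ketone-derived acetoacetyl-CoA, had 108.2 ± 14.7 CPM (SD, n = 4) in EYFP, against 82.1 ± 4.66 CPM (SD, n = 3) in ATG7. Its groups did not overlap (log2 fold change -0.40, edgeR adjusted p = 0.125), and the DESeq2 Wald test called it, as the 1 gene of this list. Bdh1, which interconverts beta-hydroxybutyrate and acetoacetate, stood at -0.33 (edgeR adjusted p = 0.368), with 44.9 and 42.9 CPM in EYFP 2 and EYFP 4 and 28.9 to 32.1 in the other libraries. EYFP 2 and EYFP 4 were also highest in the choroid plexus markers, at 72300 and 65830 CPM, whose part in the values of this list was not tested.

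Of 9 lactate genes, edgeR and DESeq2 called 0, and 0 had an unadjusted p under 0.05. The lactate exporter Slc16a3 stood at 0.24 (edgeR adjusted p = 0.477) and Emb, a partner of lactate carriers, at -0.32 (edgeR adjusted p = 0.482). Of 14 genes that handle medium-chain fatty acids, the Gpr84 ligands, both tests called 0, and 4 had an unadjusted p under 0.05. Their median was -0.11, with 11 negative and 3 positive, beside the choroid plexus markers at a median of -0.27. Acaa2, the thiolase of this pathway, was highest in the same EYFP 2 and EYFP 4, at 174.9 and 133.4 CPM against 93.9 to 124.3 elsewhere, and the part of the choroid plexus was not tested. Acadm, the medium-chain acyl-CoA dehydrogenase, had 109.4 ± 5.84 CPM (SD, n = 4) and 101.2 ± 5.19 CPM (SD, n = 3). Acot9, a mitochondrial thioesterase, stood at 0.28 (edgeR adjusted p = 0.219) and Hadh, which acts in the same oxidation, at -0.25 (edgeR adjusted p = 0.343).

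**Figure D3:**
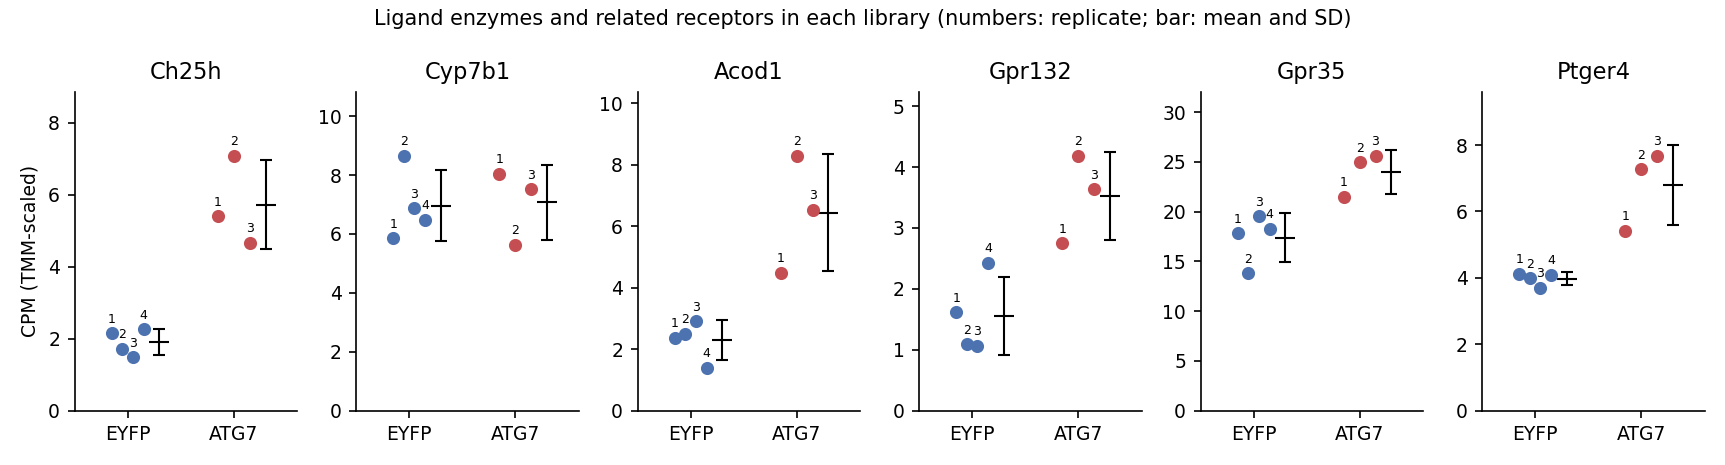
Level in CPM (y axis, from 0, on a scale of its own per panel) of 3 ligand enzymes and 3 related receptors in each EYFP and ATG7 library, with replicate numbers and the mean and SD as bars. Ch25h and Acod1 have all ATG7 points above EYFP and passed the edgeR test, Cyp7b1 overlaps, and Gpr132, Gpr35 and Ptger4 do not overlap but missed the threshold in the edgeR test of all 7 libraries with its standard filter.

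Of 21 receptors listed for other metabolites and for protons, 13 were tested, edgeR called 0 and the DESeq2 Wald test called 3. Over all genes the DESeq2 Wald test called 582, against 145 by edgeR. Of the 13, 12 had a positive log2 fold change, next to 49.2% of all genes tested, and the median was 0.39. Of these, 5 had an unadjusted p under 0.05. Gpr132, a receptor for oxidised fatty acids and acid conditions, had 1.61, 1.09, 1.06 and 2.43 CPM in EYFP 1 to 4 and 2.75, 4.19 and 3.63 CPM in ATG7 1 to 3. Its groups did not overlap (log2 fold change 1.19, edgeR adjusted p = 0.112). Gpr35, which responds to kynurenic acid, had 17.4 ± 2.47 CPM (SD, n = 4) and 24.0 ± 2.22 CPM (SD, n = 3), also without overlap (0.47, edgeR adjusted p = 0.127). DESeq2 called both of these, and so did edgeR without a filter on low counts. The adenosine receptor Adora2b was the 1 tested member with a negative value, at -0.21. Of the short-chain fatty acid receptors, Ffar3 was at 0 in every library, and Ffar2 had at most 0.301 CPM. The median ran from 0.30 to 0.50 over the alternatives that tested 13 of these genes. Gpr132, Gpr18 and Gpr65 are also known in lymphocytes. The T and NK cell markers given above were higher in ATG7 as well, and their part in the values of this list was not tested.

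Of 28 tested receptors for lipid mediators, edgeR called 0 and DESeq2 called 1, and 3 had an unadjusted p under 0.05. The signs were split, with 15 positive and 13 negative and a median of 0.02. Ptger4, a prostaglandin E receptor that raises cyclic AMP, had 3.98 ± 0.193 CPM (SD, n = 4) in EYFP, against 6.79 ± 1.20 CPM (SD, n = 3) in ATG7 without overlap (0.77, edgeR adjusted p = 0.0505). It was the gene DESeq2 called, and edgeR called it too without a filter, with a filter of 1 CPM and without ATG7 1. Its relative Ptger3, which lowers cyclic AMP, had 3.74 ± 0.571 and 2.36 ± 0.882 CPM, also without overlap (-0.66, edgeR adjusted p = 0.338). In this list 2 genes were higher and 2 lower in ATG7 without overlap. Cysltr2, a leukotriene receptor, stood at 0.71 (edgeR adjusted p = 0.223). Of 34 genes for inhibitory G proteins, arrestins and cyclic AMP turnover, edgeR and DESeq2 called 0, and 2 had an unadjusted p under 0.05, Rgs16 at 0.88 (edgeR adjusted p = 0.361) and Adcy4 at 0.48 (edgeR adjusted p = 0.302). Their median was 0.08, with 24 positive and 10 negative.

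**Figure D4:**
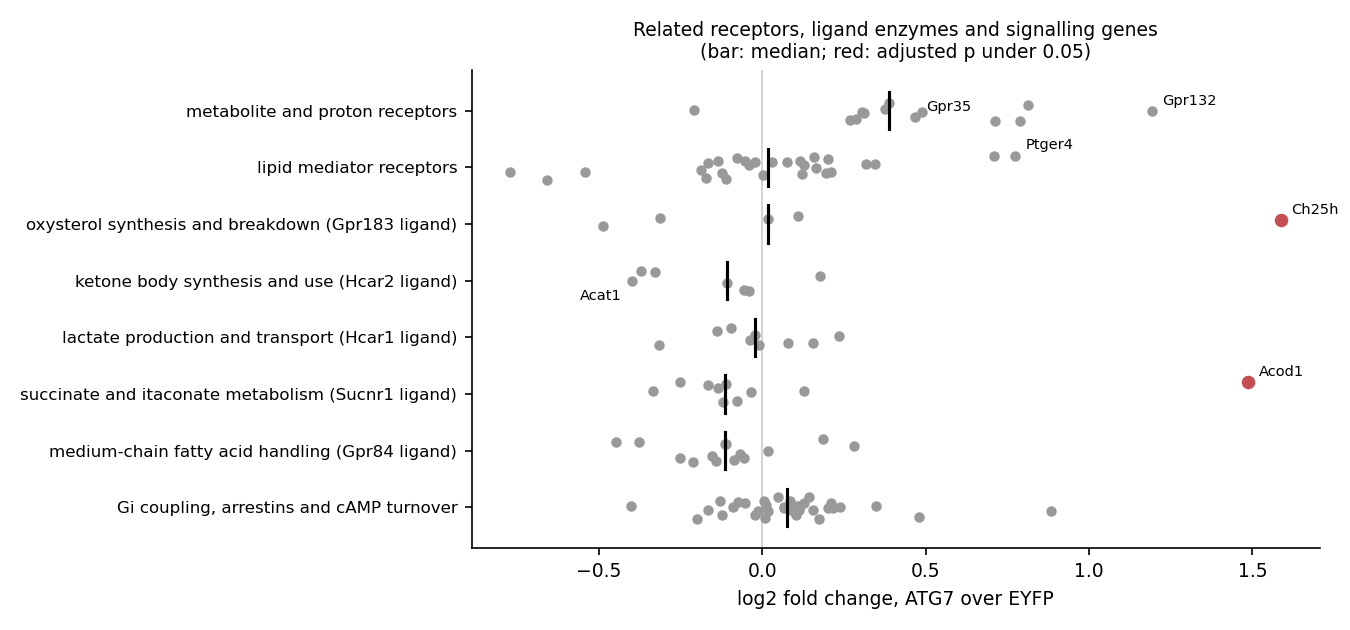
Log2 fold change of ATG7 over EYFP (x axis) for each tested gene of 8 lists (rows), with the median of the list as a black bar and genes that passed the edgeR test in red. The 2 red points are Ch25h at 1.59 and Acod1 at 1.49, and 12 of 13 points of the metabolite and proton receptors lie to the right of 0.

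Within 100 kb of Hcar2 or Hcar1, 5 other genes were tested. Neither edgeR nor DESeq2 called any of them. Ccdc62 and Hip1r had an unadjusted edgeR p under 0.05, and that of Kntc1 was 0.05. Of all 19199 genes tested, 2300 were under 0.05 before adjustment. Kntc1, a spindle checkpoint gene, stood at 0.55 (SE 0.251, edgeR adjusted p = 0.417). Denr, a translation factor, stood at -0.02 (edgeR adjusted p = 0.948). Ccdc62 stood at -0.38 without overlap (edgeR adjusted p = 0.262) and Hip1r, an endocytic adaptor, at -0.23 (edgeR adjusted p = 0.365). The unnamed transcript Gm43518 stood at -0.92 (SE 0.451, edgeR adjusted p = 0.460) from under 0.5 CPM on average.

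Near Gpr84, 6 other genes were tested, and edgeR and DESeq2 called 0. The integrin Itga5 stood at 0.26 (unadjusted p = 0.0264, edgeR adjusted p = 0.335), with EYFP 2 apart from the other EYFP libraries, and Cbx5, Hnrnpa1, Nfe2, Copz1 and Zfp385a lay between -0.04 and 0.06. Near Gpr183, 3 were tested, and edgeR and DESeq2 called 0. Gpr18, a lipid receptor of lymphocytes, stood at 0.81 (unadjusted p = 0.0359, edgeR adjusted p = 0.371), Ubac2 at -0.03 (edgeR adjusted p = 0.918) and 1810041H14Rik at -0.11 (edgeR adjusted p = 0.951). None of the 4 genes near Sucnr1 passed the filter on low counts.

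**Figure D5:**
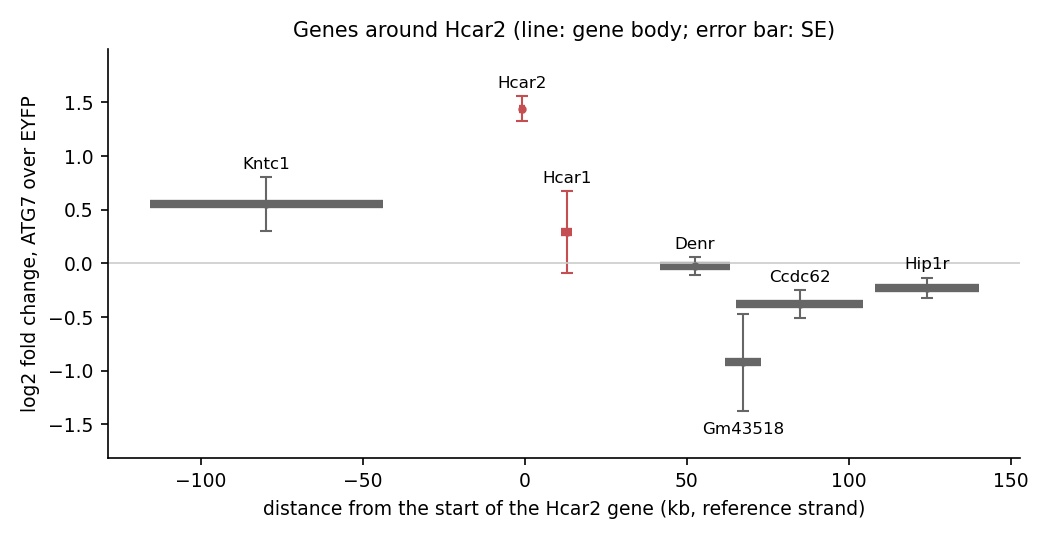
Log2 fold change of ATG7 over EYFP (y axis) for Hcar2, Hcar1 (red) and the other tested genes (grey) by distance from the start of Hcar2 in kb (x axis), where the thick line spans the gene body and the error bar is the SE. Hcar2 stands at 1.44 while the 5 grey genes lie between -0.92 and 0.55.

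The genes whose log2 CPM followed each receptor most closely over the 7 libraries were taken from 15041 other genes (15042 for Hcar1) with a mean of at least 1 CPM. For Hcar2 they were the histone gene Hist3h2ba (r = 0.990, rho = 0.929), the interferon-induced factor Batf2 (r = 0.989, rho = 0.857) and the IgG receptor Fcgr4 (r = 0.987, rho = 0.964). Since Hcar2 separates the groups, these r values largely restate the group difference. After each group was centred on its own mean they were 0.874, 0.804 and 0.633. Fcgr4 averaged 11.6 ± 1.63 CPM (SD, n = 4) in EYFP, against 31.0 ± 2.05 CPM (SD, n = 3) in ATG7, without overlap.

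For Gpr84 the closest were the lysosomal mannosidases Man2b1 (r = 0.986, rho = 0.893) and Man2b2 (r = 0.985, rho = 0.893) and the chromatin assembly factor Chaf1b (r = 0.981, rho = 0.857). Their values after centring were 0.976, 0.997 and 0.991. Most of the spread of Gpr84 lies within ATG7, and the genes were picked for a high r over the same libraries. Man2b1 had 949 CPM in ATG7 1 and 1169 and 1118 CPM in ATG7 2 and ATG7 3, against 907 to 955 in EYFP, so ATG7 2 and ATG7 3 stood above the other libraries as they did for Gpr84. For Gpr183 the closest were the G protein regulator Rgs14 (r = 0.982, rho = 0.929), the phosphatase Ptpra (r = 0.979, rho = 1.000) and Pigu (r = 0.974, rho = 1.000), with 0.984, 0.986 and 0.981 after centring. For Hcar1, at few reads, they were Nucb1, Kars and Anxa4 (r = 0.979, 0.977 and 0.967). These are the highest of all r values computed over the same 7 libraries, and are given with no test.

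The receptors themselves followed each other less closely. Hcar2 and Gpr84 had r = 0.729 and rho = 0.607 over the 7 libraries, but 0.245 after centring the groups. Hcar2 and Gpr183 had r = -0.243 and rho = 0.107, and Hcar2 and its neighbour Hcar1 had r = 0.295 and rho = 0.357. Gpr84 and Gpr183 had r = 0.137 and rho = 0.357, and 0.539 after centring. Within ATG7, the library lowest in Gpr84 was also lowest in Gpr183, namely ATG7 1, while its Hcar2 level of 18.7 CPM was close to the 18.8 CPM of ATG7 3.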

How the data were processed

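RNA sequencing libraries of CD11b-enriched hippocampal microglia, 4 EYFP and 3 ATG7, were grouped by sample title. The authors deposited raw counts per gene, and per the submitters' processing notes the tools were fastp 0.20.1, HISAT2 2.0.5 and featureCounts, with the mm10 (GRCm38) build. Strand setting, shared reads and annotation release are not given in the sources used here. The 37 mitochondrial genes were at 0 in every library. GENCODE M21 gave symbols for 55141 of the 55401 identifiers (260 had none), and its coordinates may differ from the intervals counted.

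Counts were fitted in R 4.3.3 by edgeR 4.0.16 and its quasi-likelihood test (TMM factors, filterByExpr, robust dispersion, no covariate, all 7 libraries). P-values were two-sided, Benjamini-Hochberg adjusted over all 19199 genes, with a threshold of 0.05. Log2 CPM used a prior count of 2. Length was the union of exons. Coding sequences were aligned with Biopython 1.88. Pairs of libraries of a group differed by a chi-square of 20.4 to 44.5 per degree of freedom, above counting noise, so no pair was treated as a repeat of the same library. Whether libraries share animals is not given. A floor of 3 counts covers counting error only.

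The members, the 8 pathway lists, the 12 marker lists and all rules were chosen with earlier results of these data known. The text names the 5 receptors, the genes of each list that passed (at most 5) or otherwise the 2 with the smallest p, every tested gene within 100 kb of a receptor, and the 3 genes of highest r for each receptor. Other genes were named after their values were seen, and some list members are counted but not reported here by name. Alternatives were other scalings and filters, the Wald test of DESeq2 1.42.0, voom of limma 3.58.1, a replicate block, and each library left out. On simulated data, a change of 2-fold was called for 69.7% of 195 changed genes among 18889 tested, with 4.90% of calls false. At 1.5-fold 34.3% of 198 were called among 18880 tested, and at 3-fold 78.6% of 192 among 18802, with 8.11% and 9.04% of calls false.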

Additional observations from a re-analysis of the deposited data

Results flagged for a closer look

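Among the 4 EYFP libraries, 70 of the genes named were checked for a library far from the other 3, and 4 stood out, where chance alone gives about 3.5. That number treats genes as separate, whereas the sex-linked Xist and Ddx3y stood out in the same library, so it gives no reading of EYFP 3. Xist was at 938.5 CPM in EYFP 3 against 0.327 to 0.574 in the other EYFP libraries, and the Y-linked Ddx3y at 27.6 CPM in EYFP 3 against 153.0 to 168.7. Rgs16, a regulator of G protein signalling, was at 1.15 CPM in EYFP 1 against 0.488 to 0.589. Itga5, the integrin near Gpr84, was at 28.1 CPM in EYFP 2 against 34.1 to 35.1. None of the 4 receptors tested stood out in this way.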

How the results depend on the processing

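Hcar2 kept a higher ATG7 level under all 14 alternatives, with a log2 fold change of 1.36 to 1.48. Gpr84 ran from 0.30 to 0.64, Gpr183 from -0.16 to -0.01 and Hcar1 from -0.09 to 0.60, the last with no value under the filter of 1 CPM. Sucnr1 has no fitted value.

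Of all genes, 297 were called without a filter (234 higher, 63 lower) and 582 by the DESeq2 Wald test (406 higher, 176 lower), which included all 145. With the replicate block edgeR called 0 (0 higher, 0 lower), where the numbers are not known to pair animals. Same-numbered libraries had correlations of -0.0609, -0.182 and 0.0664. No ATG7 library was closest to the EYFP library of its own number, though EYFP 3 was closest to ATG7 3. In that block fit Hcar2 stood at 1.36, Gpr84 at 0.43, Gpr183 at -0.11 and Hcar1 at 0.25. Leaving out 1 library gave 28 to 277 called genes (26 to 209 higher, 2 to 68 lower): 277 without EYFP 1, 94 without EYFP 2, 30 without EYFP 4, 28 without ATG7 2 and 30 without ATG7 3. The lower count was 23 without EYFP 3.

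Of the pathway genes, 6 were called without a filter (5 higher, 1 lower), 7 by DESeq2 (6 higher, 1 lower) and 0 with the replicate block (0 higher). Leaving out 1 library gave 0 to 3 (0 to 3 higher, 0 to 1 lower), with 0 left without ATG7 2, 1 each without EYFP 2, EYFP 4 or ATG7 3, and 1 lower gene without EYFP 1. With the block Ch25h stood at 1.67 (edgeR adjusted p = 0.157, range over all alternatives 1.09e-09 to 0.157) and Acod1 at 1.28 (edgeR adjusted p = 0.224, range 7.61e-06 to 0.224). Ch25h was called in 12 and Acod1 in 9 of the 14 alternatives. The cause of these moves was not tested.

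Signs turned for 7 uncalled neighbours near 0. With voom Cbx5 was 0.022 and Nfe2 -0.095. With the replicate block Cbx5 was 0.001, Nfe2 -0.321 and 1810041H14Rik 0.057. Leaving out 1 library, Denr ran from -0.081 to 0.032, Cbx5 from -0.065 to 0.035, Hnrnpa1 from -0.081 to 0.013, Nfe2 from -0.739 to 0.312, Copz1 from -0.103 to 0.017, 1810041H14Rik from -0.300 to 0.188 and Ubac2 from -0.086 to 0.011.

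The few Hcar1 reads limit its precision, and the 3 ATG7 libraries limit all tests.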
